A study of Rattus norvegicus with 5 samples.

Results

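The 2 probes described here read miR-126 and miR-126*, the strands of a microRNA hairpin best known from the cells that line blood vessels. They were taken by their names, rno-miR-126 and rno-miR-126*, from the 678 rat miRNA probes of a 1-colour array, on which each probe is printed as 4 spots. The RNA came from the hearts of male SD rats. They had undergone either transverse aortic constriction (TAC), an operation in which the aortic arch is narrowed so that the left ventricle pumps against a higher pressure, or a sham operation without the constriction. Each of the 5 arrays held Hy3-labelled total RNA of 5 rats. One group was sham at day 5, by its label, and the other groups were TAC at days 5, 10, 15 and 20, with 1 array each. The header of the sham column in the raw table says day 15 instead, so that sham and TAC day 5 are matched in time only if the label is right.

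MicroRNAs (miRNAs) are short RNAs that pair with messenger RNAs, mainly through a seed at bases 2 to 8, and lower their translation and stability. A hairpin precursor is cut into a duplex of which one strand, the guide, usually stays in the silencing complex, while the other, the star or passenger strand, is usually the less abundant. The miR-126 hairpin lies within Egfl7, a gene for a secreted protein of endothelial cells. In mouse and zebrafish, miR-126 is needed for the integrity of vessels and represses Spred1 and a regulatory subunit of PI3-kinase, both of which restrain signalling from the VEGF receptor. In mouse, the star strand represses Dlk1 and supports the proliferation of endothelial cells.

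The mature sequences show that the strands carry different seeds, so each has its own set of targets, and they are given here with the seed in capitals. They are RefSeq sequences on build GRCr8, chromosome 3, plus strand. The array's older names were matched to them by name: miR-126 is the 3p strand, at chr3:29813219-29813240, and miR-126* the 5p strand, at chr3:29813182-29813202.
rno-miR-126: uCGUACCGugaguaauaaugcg
rno-miR-126*: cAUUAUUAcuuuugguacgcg
The strands are 22 and 21 bases long, with G or C at 45.5% and 38.1% of positions, and 16 bases of the hairpin separate them. Of 724 mature rat sequences in the table, 0 others shared the seed of miR-126, and 0 others shared that of miR-126*. Egfl7 spans chr3:29802481-29814966 on the same strand.

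Muscle miRNAs, which mark the labelled tissue, were present: all 7 on the fixed list were above the detection floor on each array. The floor, set from empty and negative-control spots, lay between 28.1 and 72.1 units of background-subtracted signal, and between 162 and 257 rat miRNAs exceeded it on an array. The TAC day 5 array had the highest median background (206 units, against 104 on sham) and the fewest miRNAs above the floor. Since no group has a second array, the spread between hearts is unknown, and each SE below is technical, over the spots of 1 probe. In whole hearts, fewer endothelial cells and less miR-126 per cell cannot be told apart.

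On the sham array miR-126 was a bright probe. Its 4 spots gave background-subtracted signals of 47524, 48535, 51128 and 54199 units (mean 50347 ± 2983, SD over spots). On the TAC day 5 array the spots gave 1810, 2062, 2678 and 3151 units (mean 2425 ± 606). Every day 5 spot lay far below every sham spot, and the day 5 mean was 4.82% of the sham mean. The day 5 mean was still 33.7 times the floor of that array, so miR-126 was measured there and not at the background.

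On TAC day 10 the spots of miR-126 fell into separate levels. In blocks 1 to 18 of the slide they read 12443 and 4901 units, and in blocks 19 to 36 they read 65383 and 65387 units. The last 2 spots were at the scanner's ceiling, a foreground of 65535 units, so their true signal is at least that high. Of the 4 spots, 2 were thus below and 2 above all sham spots. On TAC day 15 the spots gave 32506, 33075, 50935 and 50893 units, and on TAC day 20 they gave 42592, 39816, 48720 and 51220 units. The means of these arrays were 83.1% and 90.5% of sham, and their spots overlapped the sham spots. No spot of miR-126 was at the ceiling on sham, TAC day 5, day 15 or day 20.

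The star strand, miR-126*, gave sham signals of 4147, 4344, 4721 and 4591 units (mean 4451 ± 256, SD over spots). On TAC day 5 its spots gave 1138, 1277, 1368 and 1594 units, all below the sham spots, and their mean was 30.2% of sham. On TAC day 10 they gave 1621 and 982 units in blocks 1 to 18 and 7998 and 6540 units in blocks 19 to 36. These spots, too, lay on both sides of sham. On TAC day 15 the spots lay between 3756 and 3973 units and on TAC day 20 between 3855 and 4182 units, with means of 86.4% and 90.0% of sham. All day 15 spots were thus below the lowest sham spot, 4147 units, whereas the day 20 spots overlapped sham. Over the miRNAs above the floor on all arrays, the median signal was 1055, 949, 1195, 1019 and 1101 units on sham and TAC days 5, 10, 15 and 20. MiRNAs that fell below the floor on any array are left out of these medians, and 236 exceeded it on sham but 162 on TAC day 5. The medians therefore cannot tell whether the TAC day 5 array was dimmer as a whole.

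**Figure D1:**
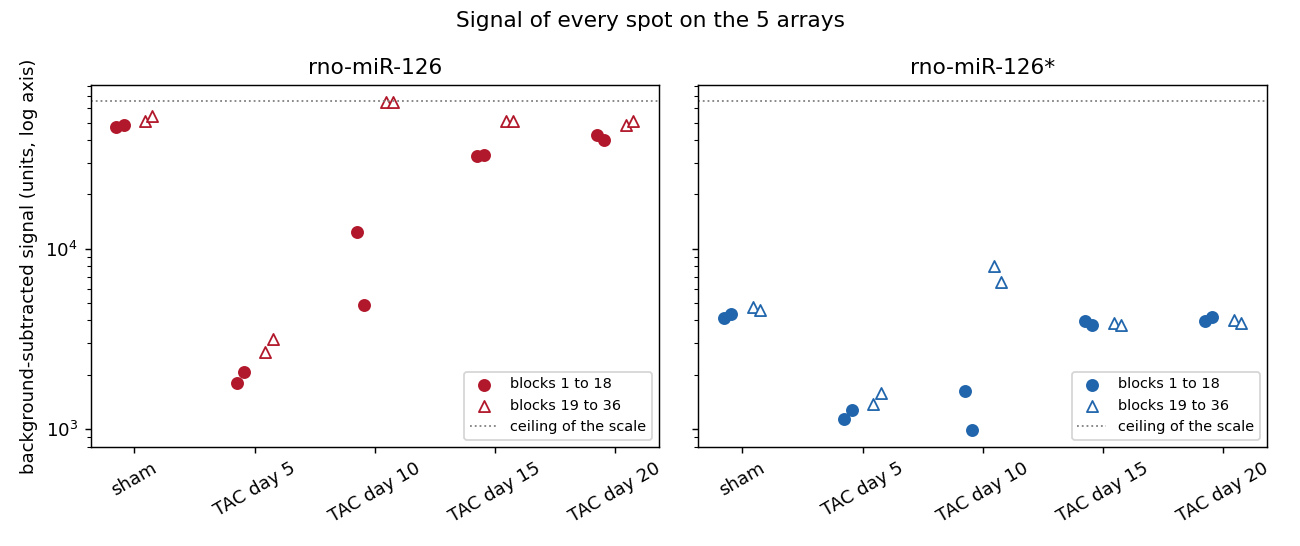
Background-subtracted signal of each of the 4 spots per array (log axis) for rno-miR-126 (left) and rno-miR-126* (right), with filled circles for blocks 1 to 18, open triangles for blocks 19 to 36 and a dotted line at the ceiling of 65535 units. All day 5 spots of both strands lie below the sham spots, and the day 10 spots split by block set.

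For comparison between arrays, foregrounds were corrected for background, quantile scaled over the rat miRNAs and averaged over spots as log2 values. On this scale miR-126 on TAC day 5 was 13.9-fold below sham, a log2 ratio of -3.80 ± 0.21 (SE over spots), which was the lowest ratio of the 152 miRNAs above the floor on both arrays. Large differences were common in this comparison: 26.3% of the 152 miRNAs read 2-fold or more lower, 41.4% read 2-fold or more higher, and for 27.6% all 4 spots lay below all 4 sham spots. MiR-126* read 2.12-fold lower (-1.08 ± 0.08) and ranked 35 from the lowest, within that background. The median ratio of all 152 was 0.56. Scaling the arrays to the spike-in controls, which are synthetic RNAs, raised the median day 5 ratio by 1.94. The ratio of miR-126 was then -1.90, still over 2-fold lower, whereas that of miR-126* turned to 0.83.

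On TAC day 10 the log2 ratio of miR-126 was -1.06 ± 0.87 (SE over spots), against a background in which 15.7% of 197 miRNAs read 2-fold or more lower and 13.7% higher. The ratio was -2.37 in blocks 1 to 18 and 0.25 in blocks 19 to 36, where both spots were at the ceiling and the value is neither exact nor a bound. With spike-in scaling it was 0.997 and in the authors' processed table -0.36. With the ceiling spots left out it was -2.45. That value sets the day 10 spots of blocks 1 to 18 against all sham spots, so it is no separate check of -2.37. MiR-126* read -0.24 ± 0.74 on day 10, with -1.41 in blocks 1 to 18 and 0.94 in blocks 19 to 36, and 1.65 with spike-in scaling. Neither strand therefore had a settled direction on day 10.

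On TAC day 15 miR-126 read -0.18 ± 0.25 and on TAC day 20 it read 0.06 ± 0.09 (log2 ratio to sham, SE over spots), ranks 82 of 201 and 148 of 231 from the lowest. MiR-126* read 0.14 ± 0.05 on day 15 and 0.15 ± 0.06 on day 20, above sham, whereas its mean background-subtracted signals on these days were below sham. All 4 values are within 2-fold of sham, as were most miRNAs on these arrays: 2.49% read 2-fold or more lower and 4.98% higher on day 15, and 0.433% and 1.3% did so on day 20. On day 15 the ratio of miR-126 was -0.51 in blocks 1 to 18 and 0.15 in blocks 19 to 36. Other directions of the day 15 and day 20 values depended on the scaling. Median scaling gave -0.17 for either strand on day 20 and -0.35 for miR-126* on day 15, and spike-in scaling gave values above 0 for both strands on both days.

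**Figure D2:**
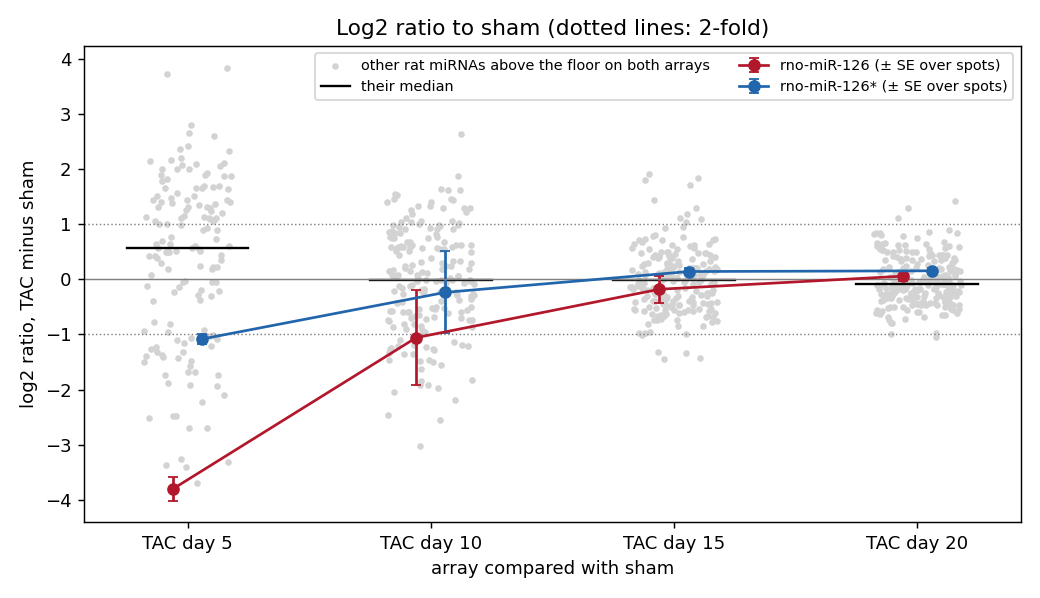
Log2 ratio of each TAC array to the sham array for rno-miR-126 (red) and rno-miR-126* (blue), with bars for the SE over spots, over the other rat miRNAs above the floor on both arrays (grey) and their median (black lines). MiR-126 lies at -3.80 on TAC day 5, below the grey points, and both strands lie within 2-fold of sham on days 15 and 20.

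Ordered by level on the quantile-scaled log2 scale, miR-126 was lowest on TAC day 5, then TAC day 10, TAC day 15, sham and TAC day 20. The step from TAC day 5 to TAC day 10, 2.74 ± 0.89 on the log2 scale (SE over spots), was the only one between neighbours whose spots did not overlap. The next steps were 0.88 ± 0.90, 0.18 ± 0.25 and 0.06 ± 0.09, each within its SE. MiR-126* was also lowest on TAC day 5, followed by TAC day 10, sham, TAC day 15 and TAC day 20. Its steps were 0.85 ± 0.74, 0.24 ± 0.74, 0.14 ± 0.05 and 0.01 ± 0.03, and the spots of neighbouring arrays overlapped at every step. By mean background-subtracted signal, sham was highest for both strands, and TAC day 5 was again lowest.

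A fit that takes the 4 TAC times as replicates, with 3 residual degrees of freedom, asks whether TAC as a whole differed from the lone sham array. It assumes that a sham array would vary as much as arrays of different TAC days do. The ± values of this fit are limma's moderated SEs, from the spread between the TAC arrays and not over spots. In limma's moderated test over 273 miRNAs, miR-126 was lower in TAC by 1.25 ± 1.38 on the log2 scale (log2 difference -1.25, adjusted p = 0.73, below sham on 3 of 4 TAC arrays). MiR-126* differed by -0.26 ± 0.74 (limma, adjusted p = 0.84, below sham on 2 of 4). In this fit 0% of the miRNAs passed an adjusted p of 0.05, and 1 of 273 had an unadjusted p under 0.05 in limma. The spread of miR-126 over the TAC arrays, an SD of 1.77 on the log2 scale, was larger than the difference tested. Without TAC day 5 the difference was -0.39 for miR-126 (limma, adjusted p = 0.80) and 0.020 for miR-126* (limma, adjusted p = 0.99).

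Both strands are cut from the same transcript, and their ratios to sham were set against each other. A shift common to all log2 values of an array cancels in this difference. Quantile scaling, used for the values here, can move bright and dim probes by different amounts and need not cancel. On TAC day 5 the ratio of miR-126 was lower than that of miR-126* by a log2 difference of -2.72 ± 0.23 (SE over spots). The difference lay between -2.96 and -2.48 over the 10 alternative ways of processing the arrays, each block set among them. Median and spike-in scaling both gave -2.74, because either shifts all log2 values of an array alike and the shift cancels here. Spike-in scaling is thus no separate check of the difference. The strands of other hairpins also differed on this array. Of 15 pairs in which both strands were above the floor on both arrays, miR-126 had the third largest difference in size (rank 3) and the median size was 1.57. The extremes were the pair of miR-331, at -4.66, and that of miR-133a, at 2.80 in the other direction, both chosen for their values.

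The difference between the strands shrank on the later arrays. It was -0.82 ± 1.14 on TAC day 10 (log2, SE over spots; rank 10 by size of 23 pairs), -0.32 ± 0.25 on day 15 (rank 13 of 24) and -0.10 ± 0.11 on day 20 (rank 28 of 34). The median sizes over all pairs were 0.74, 0.36 and 0.33. On day 10 the guide's spots at the ceiling bear on this value: with them left out the difference was -2.21, which sets the lower spots of miR-126 against all spots of miR-126*. In blocks 1 to 18 alone, where no spot of either strand was at the ceiling, it was -0.95.

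**Figure D3:**
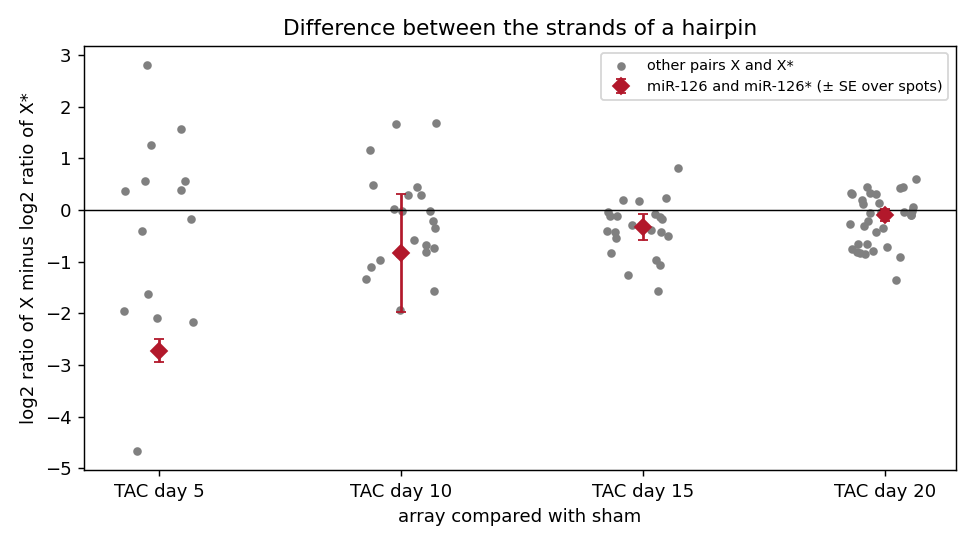
Log2 ratio to sham of a strand X minus that of its partner X*, for miR-126 (red diamonds, bars for the SE over spots) and every other pair above the floor on both arrays (grey), by TAC array. The red diamond is at -2.72 on day 5 and at -0.10 on day 20.

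The split of the day 10 spots followed the position on the slide for both strands. The probes lie in different blocks, miR-126 in blocks 13 and 31 and miR-126* in blocks 7 and 25. The level in blocks 19 to 36 exceeded that in blocks 1 to 18 by 2.78 on the log2 scale for miR-126, whose spots in blocks 19 to 36 were cut off at the ceiling, and by 2.50 for miR-126*. Over the 143 miRNAs above the floor on all arrays the median of this difference was 0.82 on TAC day 10, and the strands ranked 9 and 14 from the largest, the rank of miR-126 being as uncertain as its value. On sham the differences were 0.17 and 0.15, near the median of 0.13, and on TAC day 5 they were 0.67 and 0.18, near or above the median of 0.19. The day 5 ratio to sham was low in both block sets taken separately, at -4.05 and -3.55 for miR-126 and at -1.10 and -1.07 for miR-126*. Within blocks 1 to 18 miR-126 ranked 1 of 152 from the lowest on day 5, and within blocks 19 to 36 it ranked 4. What caused the split on day 10 was not tested.

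**Figure D4:**
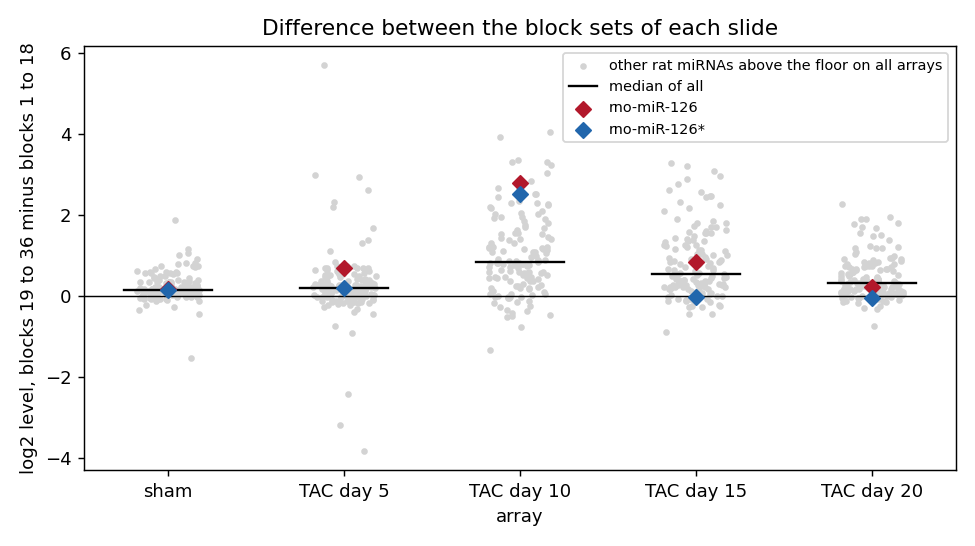
Log2 level in blocks 19 to 36 minus that in blocks 1 to 18 on each array, for rno-miR-126 (red), rno-miR-126* (blue) and the other miRNAs above the floor on all arrays (grey), with the median of all as a black line. The strands sit at 2.78 (cut off by the ceiling) and 2.50 on TAC day 10, above the median of 0.82, and near it on sham.

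The 5 miRNAs with the pattern most like miR-126 were found by the root mean square difference in log2 ratio to sham over the 4 TAC arrays, among 142 miRNAs above the floor on all arrays. MiR-143, a smooth muscle miRNA, was nearest (0.19), with ratios of -3.69, -0.70, -0.19 and 0.03 on days 5, 10, 15 and 20. It was followed by the erythroid miR-451 (0.48), miR-195 of the miR-15/16 cell cycle family (0.64), miR-378, encoded in the Ppargc1b gene (0.64), and miR-101a (0.67). The median difference over all candidates was 2.30. MiR-126*, the other strand of the same hairpin, was 34 in this order, at 1.43. For miR-126* the nearest were miR-19b of the miR-17/92 cluster (0.12), miR-322 (0.18), miR-24 (0.24), miR-378* (0.28) and miR-30e (0.33), against a median of 1.09. All 4 ratios of a miRNA share the sham array, so a high or low sham value gives a common part to every pattern. The patterns also average over both block sets. On TAC day 5 the difference between block sets described above was -2.43 for miR-143, -3.19 for miR-378 and 2.92 for miR-30e (log2). On sham it was -0.24, -0.07 and 0.78. The other patterns named lay between -0.16 and 0.73 on day 5. On TAC day 10 the 5 nearest to miR-126 lay between 3.03 and 4.03. Whether the matches hold within each block set was not tested.

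**Figure D5:**
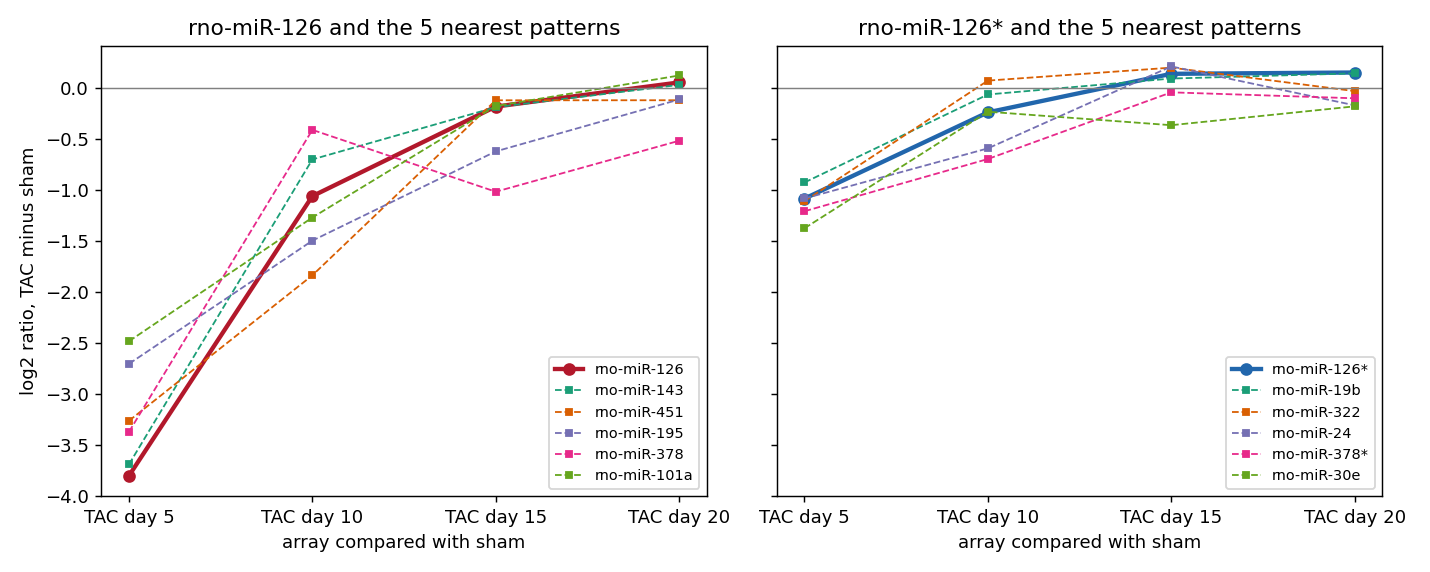
Log2 ratio to sham by TAC array for rno-miR-126 (left) and rno-miR-126* (right) with the 5 nearest patterns of each (dashed). The patterns near miR-126 start between -3.69 and -2.48 on day 5, and those near miR-126* between -1.37 and -0.92.

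Other miRNAs known to act in endothelial cells and in the growth of vessels were read from a fixed list of 26, of which 24 are on the array. The list was chosen with earlier results known. On TAC day 5, 13 were above the floor on both arrays, of which 7 read 2-fold or more lower and 1 higher, where 26.3% and 41.4% of all miRNAs did. Their median log2 ratio was -1.004, against 0.56 for all miRNAs. The lowest were miR-130a (-3.31), which in human endothelial cells represses the antiangiogenic homeobox genes GAX and HOXA5, miR-23b (-2.69), of the miR-23/27/24 cluster, and miR-101a (-2.48). MiR-27a, of a paralogous cluster, read 1.65. On TAC day 10, 4 of 17 read 2-fold or more lower and 0 higher (median -0.29), where 15.7% of all miRNAs read lower and 13.7% higher. On TAC day 15, 0 of 17 and on TAC day 20, 0 of 19 read 2-fold lower or higher, with medians of -0.17 and -0.18.

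MiRNAs of other cell types of the heart did not share one direction on TAC day 5, when 41.4% of the miRNAs measured lay 2-fold or more above sham and 26.3% below it, with a median of 0.56. Of the smooth muscle pair, transcribed together, miR-143 read -3.69 and miR-145 -0.13. The level of miR-143 differed between the block sets by -2.43 on day 5 (log2), and that of miR-145 by 0.27. The erythroid miR-451 and miR-144, which blood left in the tissue can contribute, read -3.26 and -2.11, and on day 10 they read -1.83 and -2.54. On TAC day 20, when miR-126 read 0.06, they read -0.12 and 0.29. Of 7 muscle miRNAs, 3 read 2-fold or more higher on day 5, led by miR-206 (1.89), and 1 lower, miR-499 (-2.48), with a median of 0.50, close to all miRNAs. Of 7 fibroblast and mesenchymal miRNAs, 2 read 2-fold or more higher, including miR-21 (1.70), which is abundant in cardiac fibroblasts, and 3 lower, including miR-29a (-1.69), a repressor of collagen genes. The level of miR-29a differed between the block sets by 5.69 on TAC day 5 (log2), against 1.06 on sham. Its direction on day 5 is therefore not settled. On the same list miR-29b and miR-29c read 1.14 and 0.89. Of 3 leukocyte miRNAs measured, 1 read 2-fold lower, the lymphocyte miR-150 (-1.15). The part of these cell types in the miR-126 values was not tested.

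The authors' processed ratios, the median signal of a probe divided by a constant per array, were also lowest on TAC day 5 for both strands. For miR-126 they were 48.1 on sham and 3.23, 37.5, 42.4 and 42.5 on TAC days 5, 10, 15 and 20. For miR-126* the sham value was 4.31 and the TAC values were 1.80, 3.94, 3.86 and 3.72 in the order of days. On log2 scale the day 5 ratios to sham from these values were -3.89 and -1.26. The median of 4 spots hid the split on day 10, where the authors' value of miR-126 lies between block sets whose mean signals differ at least 7.54-fold.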

How the data were processed

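RNA was labelled with Hy3, per the labels' protocols. The raw table holds, per the file headers, the foreground intensity and the background-subtracted intensity of 12312 spots on 5 arrays, neither normalized between arrays. No source used here names the scanner or the image software. The authors' deposited processed table holds a ratio: the median background-subtracted signal of a probe divided by 1 constant per array, found from the values within a relative deviation of 6.89e-07. How the constants were set is not stated.

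Foregrounds were corrected by normexp (offset 50), quantile normalized over spots of the 678 rat probes and averaged over 4 spots as log2 values (limma 3.58.1, R 4.3.3). The offset shrinks ratios of dim probes, and quantile scaling can move bright and dim probes by different amounts. The floor was the median plus 3 scaled MAD of empty and negative-control spots. The pooled test used limma with trend and Benjamini-Hochberg adjustment, and was tested on simulated data. There each changed probe was shifted by the same amount on all 4 TAC arrays, which was not so for miR-126 in these data. Members, lists and the nearest-pattern rule were chosen with earlier results of these data known. For each member the rule named the 5 nearest patterns. Of each list it allowed up to 4 members with the largest day 5 ratios.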

Additional observations from a re-analysis of the deposited data

How the results depend on the processing

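No paired analysis was possible because there is 1 array in every group. The number of arrays, the ceiling and the split of the day 10 slide limit every value. Under all 10 alternatives the strand difference moved by no more than the combined spot SD of both strands on each day. Its sign turned on day 15 in blocks 19 to 36 (0.10) and on day 20 under 4 of them. On day 10 the spot SDs, 1.73 for miR-126 and 1.48 for miR-126*, include the split between block sets. The difference ran from -2.21 to -0.23 there, so staying within the SD says little for that day. Among the alternatives, median and spike-in scaling give the same strand difference by construction, since either shifts all log2 values of an array alike. For miR-126 the log2 ratio on TAC day 5 was -4.33 with plain background subtraction, -5.10 with median scaling, -4.56 with quantile scaling over all probes and -1.90 with spike-in scaling. The day 10 ratio of miR-126 turned to 0.997 with spike-in scaling and to 0.25 in blocks 19 to 36. It was -2.37 in blocks 1 to 18 and -0.36 in the authors' table. With the ceiling spots left out it was -2.45, from the same day 10 spots as the -2.37. On day 15 the ratio of miR-126 was 0.75 with spike-in scaling. On day 20 it was -0.17 with median scaling, 0.47 with spike-in scaling and -0.18 in the authors' processed table. For miR-126* the day 5 ratio was -1.66 with plain subtraction, -2.37 with median scaling, -1.60 with quantile scaling over all probes, 0.83 with spike-in scaling and -1.26 in the authors' table, and the day 10 ratio was 1.65 with spike-in scaling. Its day 15 ratio was -0.092 with plain subtraction, -0.35 with median scaling, 0.0036 with quantile scaling over all probes, 0.85 with spike-in scaling and -0.16 in the authors' table, and its day 20 ratio was 0.40, -0.17, 0.47 and -0.21 with plain subtraction, median scaling, spike-in scaling and the authors' table. Relative to quantile scaling, spike-in scaling raised the median ratio of all miRNAs by 1.94, 2.04, 0.92 and 0.58 on days 5, 10, 15 and 20, and single miRNAs by differing amounts. The cause of these changes was not tested.

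In the fit of the 4 TAC arrays against sham the differences became 0.077 and 0.95 for miR-126 and miR-126* with spike-in scaling. With each TAC array left out in turn they ranged from -1.68 to -0.39 for miR-126 and from -0.39 to 0.020 for miR-126*, the value above 0 being without TAC day 5. Over all 15 alternatives of the fit the differences ranged from -1.80 to 0.077 for miR-126 and from -0.93 to 0.95 for miR-126*. The count of miRNAs at 2-fold was 58 on day 10, and 91 with plain subtraction, 166 with spike-in scaling and 91 in blocks 1 to 18. It was 15 on day 15, and 65 with plain subtraction, 26 with median scaling, 87 with spike-in scaling, 53 in blocks 1 to 18 and 34 in the authors' table. It was 4 on day 20, and 51 with plain subtraction, 10 with median scaling, 8 with quantile scaling over all probes, 49 with spike-in scaling, 17 in blocks 1 to 18, 10 in blocks 19 to 36 and 36 in the authors' table. On day 5 the count stayed within 1.5 times of 103.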

Other observations

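The DNA strand opposite the miR-126 hairpin encodes a further annotated hairpin, whose mature product RefSeq calls rno-miR-126b and for which the array carries a probe under the older name rno-miR-3567. This probe was added after the data were seen. The product, at chr3:29813177-29813198 on the minus strand, overlaps miR-126* over 17 bases, and its seed, in capitals, differs from those of both strands.
rno-miR-126b: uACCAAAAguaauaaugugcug
Its mean signal was -37.5 units on sham and -84, -33.75, -77.25 and -24.5 units on TAC days 5, 10, 15 and 20, below the floor on all 5 arrays. Whether this probe can report its target was not tested.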
